A study of Mus musculus with 4 samples.

Results

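The cells described here are CD4 T cells of tumour-draining lymph nodes (TDLN) that carry transcripts of 4 activation genes and lack transcripts of the regulatory gene Foxp3 and the inhibitory receptor gene Pdcd1. A cell barcode was taken when it held at least 200 genes, at most 10% mitochondrial UMIs (unique molecular identifiers, 1 for each counted transcript), at least 1 UMI of Cd3d, Cd3e or Cd3g and at least 1 UMI of Cd4. It also had to hold no UMI of Cd8a, Cd8b1, Foxp3, Pdcd1 or the B cell gene Cd79a, and at least 2 UMIs in all of Icos, Tnfrsf4, Tnfsf8 and Cd40lg. The cells were thus chosen by their own UMI counts of these genes. The sum over the 4 activation genes is called the gate sum, and barcodes that pass are called gate-positive. The rule took 1278 of the 42163 barcodes of the series, 697 of them in the NanoCa library and 581 in the mock library.

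The study profiled single cells from CT26 tumours, which grow from a mouse colon carcinoma line, and from the lymph nodes that drain them. The mice were female and 4 to 8 weeks old. The 2 lymph node groups were NanoCa, a lipid nanoparticle with a calcium crystal that the series title ties to interferon beta, and mock, which is tagged as untreated although its treatment field also names NanoCa. Both groups bore the tumour, both suspensions were stained for CD45 and sorted before droplet 3' libraries were made, while the labels name no sort gate, mouse strain or number of mice. Each group held 1 library, so no test was run and no p-value is given. Every interval is a 95% interval for counting error alone, and any difference between the libraries may come from the mice, the sort or the library as well as from the treatment. The 2 lymph node libraries held 11013 (NanoCa) and 10268 (mock) barcodes after the gene and mitochondrial filters, and shared 145 barcode sequences, none of them between gate-positive cells.

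When a CD4 T cell meets its antigen it raises a set of costimulatory proteins. ICOS (Icos) and OX40 (Tnfrsf4) are receptors that prolong the response, CD40 ligand (Cd40lg) licenses dendritic cells and B cells, and CD30 ligand (Tnfsf8) binds CD30 on other lymphocytes. In a draining lymph node such cells can become follicular helper cells, effector cells that leave for the tumour, or memory cells, and naive cells there keep the homing receptor CCR7 and the transcription factor LEF1.

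Most cells entered through Icos. A UMI of Icos was found in 83.1% of gate-positive cells with NanoCa and in 81.9% with mock. Tnfrsf4 was found in 42.5% and 44.8%, Cd40lg in 40.6% and 39.1%, and Tnfsf8 in 22.8% and 26.9%. B cells, which should lack Icos transcripts, held a UMI of it in 1.96% (NanoCa) and 1.32% (mock) of cells, at median depths of 3900 and 3972 UMIs against 4726 and 4590 in the gate-positive cells. Icos alone supplied every gate UMI in 158 NanoCa and 131 mock cells. A gate sum of 8 or more was reached by 122 (17.5%) and 101 (17.4%) cells, and the highest sums were 112 and 126. Both libraries thus filled the gate through the same genes in like proportions. The rule chose the cells by these genes, so the proportions describe the chosen cells only.

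The genes of antigen-experienced cells were highest in the cells with 4 or more gate UMIs, which the label of activated cells fits best, and were lower near the threshold. Of the 1749 NanoCa and 1416 mock CD4 T cells that passed all other criteria, the gate sum was 0 in 625 and 469 cells, 1 in 427 and 366, 2 in 247 and 216, 3 in 155 and 113, and 4 or more in 295 and 252. The cells with a sum of 4 or more are called high-gate below. A sum of 2 is just inside the threshold and a sum of 1 just outside it.

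Maf, a transcription factor of helper cells that make interleukin-10, interleukin-4 or interleukin-21, was the one proposed marker that the rule did not use. With NanoCa its level was 18.9 CPM (the gene's UMIs in 1000000 of the summed UMIs) at a gate sum of 0, 7.94 at 1, 15.4 at 2, 21.8 at 3 and 78.3 (66.4 to 91.6) at 4 or more. With mock it was 10.1, 12.1, 15.4, 25.3 and 94.2 (80.7 to 109). The level stayed low up to a sum of 2, and the high-gate cells stood above every other bin in both libraries.

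Other genes of antigen-experienced cells were also highest in high-gate cells. Izumo1r encodes the folate receptor 4 of regulatory and anergic CD4 cells. It stood at 18.5 (NanoCa) and 25.3 (mock) CPM at a sum of 0, at 25.1 and 42.5 at 2, and at 177 and 166 in high-gate cells. Ctla4, an inhibitory receptor induced by activation, stood at 45.4 (37.6 to 54.3) and 30.8 (23.9 to 39.2) CPM at a sum of 0, at 70.4 (56.4 to 86.8) and 60.6 (47.0 to 77.0) at 2, and at 309 and 303 in high-gate cells, and its intervals at 0 and 2 did not overlap. Rora encodes a nuclear receptor of effector and tissue T cells. It was at 27.2 and 27.6 CPM at a sum of 0, at 39.6 and 20.8 at 2, and at 209 and 150 in high-gate cells. Cd44 encodes the adhesion receptor that marks antigen-experienced cells. It was at 62.0 and 87.9 CPM at a sum of 0, at 62.3 and 85.0 at 2, and at 136 and 160 in high-gate cells. Cd44 was thus much the same at 0 and 2, and mock Rora was no higher at 2 than at 0. Rgs1, a brake on chemokine receptor signalling, was at 139 and 87.0 CPM at a sum of 0, at 163 and 157 at 2, and at 477 and 422 in high-gate cells.

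Several genes of naive cells ran the other way. Lef1 was at 1008 (NanoCa) and 930 (mock) CPM at a sum of 2, against 1048 and 908 at a sum of 0, and at 524 and 440 in high-gate cells. Igfbp4, a gene of recent thymic emigrants and naive CD4 cells, was at 533 and 668 CPM at a sum of 2 and at 291 and 265 in high-gate cells. S1pr1, the receptor that lets T cells leave the node, was at 498 and 384 CPM against 310 and 181. Others differed less. Ccr7 stood at 2035 and 1785 CPM at a sum of 2 and at 2055 and 1531 in high-gate cells. Tcf7, a transcription factor of naive and memory T cells, was at 281 and 304 CPM against 257 and 222. Without the deep barcodes (over 10000 UMIs, described below), Lef1 was at 644 CPM in the high-gate cells of both libraries and Maf at 101 and 129.

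**Figure D1:**
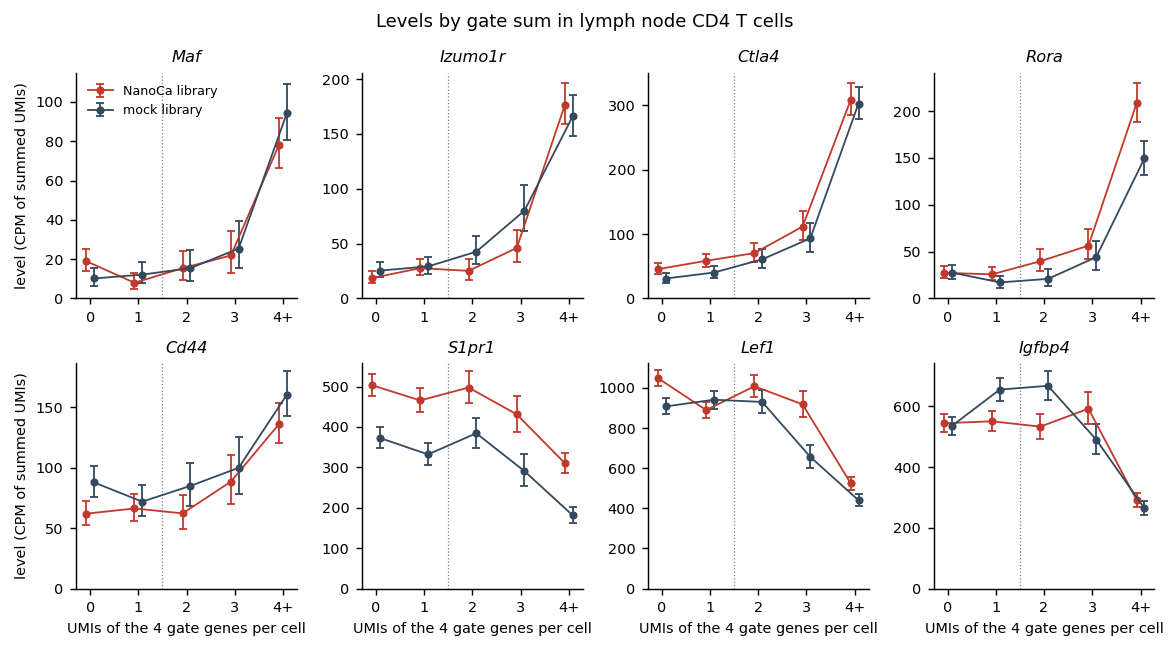
Levels of 8 genes in CPM of summed UMIs (vertical axes, from 0) by gate sum (horizontal axes, 0 to 4 or more) in CD4 T cells of the NanoCa (red) and mock (dark) lymph node libraries, with 95% Poisson intervals; the dotted line marks the gate. Maf, Izumo1r, Ctla4, Rora and Cd44 were highest at 4 or more gate UMIs, where S1pr1, Lef1 and Igfbp4 were lowest.

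Per cell, at least 2 UMIs over Maf, Izumo1r, Ctla4 and Rora were found in 9.44% (NanoCa) and 7.89% (mock) of cells with a gate sum of 0. The share was 13.8% and 14.8% at a sum of 2, 27.1% (20.3 to 34.8) and 35.4% (26.6 to 45.0) at 3, and 64.4% (58.7 to 69.9) and 62.7% (56.4 to 68.7) in high-gate cells. Depth moved with the gate sum: median UMIs per cell went from 4003 and 4091 at 0 through 4404 and 4388 at 2 to 4960 and 4790 in high-gate cells, and its part in these shares was not tested. The gate used counts of the same cells, so these levels are a description.

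A small set of very deep barcodes weighs on every sum of UMIs. Over 10000 UMIs were held by 42 gate-positive barcodes with NanoCa and 36 with mock, which carried 22.6% and 30.1% of all gate-positive UMIs. Cd3e was at 553 (NanoCa) and 384 (mock) CPM in them, against 1098 and 1079 in the shallower cells. At least 3 UMIs of the carcinoma genes Rhox5, Krt8 and Krt18, of the macrophage genes Lyz2, C1qa, C1qb and C1qc, or of the stromal genes Col1a1, Col1a2 and Dcn were found in 6 of 42 and 13 of 36 deep barcodes. The same was found in 3 of 655 and 28 of 545 shallower ones. At least 3 UMIs of the proliferation genes Mki67 and Top2a were found in 11 and 12 of the deep barcodes and in 1 and 10 of the others. Whether a deep barcode is a large dividing cell or holds RNA of more than 1 cell was not tested, so the main counts and the named genes are also given without them.

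Gate-positive cells differed from gate-negative cells (gate sum of 0, all other criteria met) at many genes. A gene was compared when it had at least 50 UMIs over both sets and was called higher or lower when its CPM differed at least 1.5-fold and the interval of the ratio excluded 1. With NanoCa, 509 of 8441 genes were called higher (6.03%) and 147 lower (1.74%), which is 7.77% of the genes compared. With mock, 618 of 8464 were called higher (7.3%) and 170 lower (2.01%), 9.31% in all. Leaving out the deep barcodes gave 325 higher (4.14%) and 89 lower (1.13%) of 7846 with NanoCa, and 347 higher (4.67%) and 116 lower (1.56%) of 7436 with mock. Without the gate genes and the other genes of the rule, 242 genes were higher in both libraries, 48.8% of the NanoCa list and 39.9% of the mock list, and 14 were lower in both.

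Among the 10 highest genes common to both libraries that reached 50 CPM in at least 1 set were survival and signalling genes of stimulated T cells. Il2rb, a chain of the interleukin-2 receptor, was at 83.5 CPM in gate-positive and 6.81 in gate-negative cells with NanoCa, and at 75.0 and 5.52 with mock. Bcl2a1d and Bcl2a1b, near-identical anti-apoptotic genes whose reads may be shared between copies, were higher by 3.23 and 2.12 on the log2 scale with NanoCa and by 3.51 and 2.90 with mock. Tnfrsf9, the costimulatory receptor 4-1BB, was at 57.5 CPM against 7.94 with NanoCa and at 55.1 against 6.90 with mock. Bhlhe40, a transcription factor of cytokine-producing helper cells, was higher by 2.38 and 3.01 and found in 25.5% and 23.8% of gate-positive cells. Izumo1r was higher by 2.47 and 2.14. Areg, an epidermal growth factor family ligand, was higher by 2.22 and 2.35 but found in only 4.59% and 7.23% of gate-positive cells.

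Killer genes also stood in that group, each found in few cells. Gzmb, the protease granzyme B, was found in 0.861% (NanoCa) and 1.38% (mock) of gate-positive cells, and 1 cell held 51.2% and 70.9% of its UMIs. Gzma, granzyme A, was found in 1.00% and 2.41% of cells, with 48.9% and 76.3% of its UMIs in 1 cell. Nkg7, a granule protein, was found in 2.58% and 5.51%. Once those over 10000 UMIs were left out, Gzmb was called in neither library and Gzma only with NanoCa, while Nkg7 was called in both (log2 differences of 2.10 and 3.90). Of the 14 genes called lower in both libraries, the 4 that reached 50 CPM in at least 1 set were Pdlim4, Cd55, Gm45552 and Tubb2a. Their log2 differences lay between -0.64 and -1.32. Without the deep barcodes Tubb2a was the only one of them still called in both libraries.

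The counts by gene group stand beside 6.03% (NanoCa) and 7.3% (mock) of all genes called higher and 1.74% and 2.01% called lower. Activation and costimulation genes other than the gate were called higher in 16 of 25 (NanoCa) and 17 of 25 (mock). Their median log2 differences were 0.76 and 0.92, against 0.04 and 0.04 over all genes compared. Regulatory T cell genes other than Foxp3 were called higher in 8 of 8 and 8 of 9, although the rule kept out cells with a Foxp3 UMI. Il2ra, Ctla4, Tnfrsf9, Tnfrsf18 and Cd83 stand in both of these lists. One of them, Ikzf2, which encodes the transcription factor Helios, was at 15.4 (NanoCa) and 17.2 (mock) CPM at a gate sum of 2 and at 87.9 and 129 in high-gate cells. Follicular helper genes were higher in 6 of 12 and 7 of 13. Homing genes of naive and central memory cells were called in neither direction in any of 17, with medians of -0.26 and -0.24. Within the gate, high-gate cells compared with cells of a sum of 2 or 3 had 7 of 17 (NanoCa) and 5 of 17 (mock) of these genes lower, beside 3.87% and 4.13% of all genes (12.1% and 15.1% in either direction). With the deep barcodes left out, 2 and 4 of the 17 were lower, beside 1.89% and 1.77% of all genes.

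Cell cycle genes were called higher in 18 of 30 with NanoCa and 24 of 30 with mock (medians 0.85 and 1.25), beside 6.03% and 7.3% of all genes. Once the deep barcodes were left out, 0 of 21 and 0 of 25 were called higher, beside 4.14% and 4.67% of all genes, 1 was lower in each library, beside 1.13% and 1.56%, and the medians were 0.06 and 0.04. Mki67, a protein of dividing cells, was found in 5.45% and 8.61% of gate-positive cells and in 4.80% and 7.46% of gate-negative cells. The higher level of these genes was thus not seen without the deep barcodes.

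Transcripts of polarised helper fates were found in differing shares of gate-positive cells. Bcl6, the factor of follicular helper cells that B cells of the follicle also use, was found in 22.7% (NanoCa) and 25.8% (mock), against 17.6% and 13.0% of gate-negative cells and 24.8% and 28.2% of B cells. Gata3, the Th2 factor that all CD4 cells express at a low level, was found in 12.1% (NanoCa) and 14.1% (mock), against 7.68% and 6.40% of gate-negative cells and under 0.5% of B cells (0.352% and 0.481%). Cxcr3, the chemokine receptor of Th1 cells, was found in 3.59% and 3.79%, and the Th1 factor Tbx21 in 1.87% and 1.55%, against 0.32% and 0.213% of gate-negative cells and 0.503% and 1.20% of B cells. Cxcr5, the receptor that takes follicular helper cells to the B cell follicle, was found in 3.87% and 2.24%, far below the 45.3% and 52.4% of B cells.

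Cytokine transcripts were rare. Il2 was found in 15 (2.15%) and 18 (3.10%) gate-positive cells, Il4 in 8 and 13, Ifng in 8 and 14, Il21 in 4 and 4, and Il17a in 2 and 1. None of the gate-negative cells held an Il2, Il4, Il21 or Il17a UMI, which at a floor of 3 cells allows shares of cells with such a UMI of up to 0.48% with NanoCa and 0.64% with mock, and Ifng was found in 1 NanoCa and no mock gate-negative cell. Il2ra, the high-affinity chain of the interleukin-2 receptor, was found in 4.88% and 7.06% of gate-positive cells against 1.12% and 1.71% of gate-negative cells. Thinned to 2000 UMIs per cell, which left out 13 NanoCa and 8 mock gate-positive cells, Maf was found in 8.48% and 8.90% of gate-positive and 3.18% and 1.97% of gate-negative cells. After the same thinning Bcl6 was found in 9.50% and 11.7% of gate-positive and 9.70% and 8.95% of gate-negative cells. Gata3 was then found in 6.14% and 4.36% against 3.68% and 4.15%. The unthinned gap thus did not remain for Bcl6 with NanoCa and was small for Gata3 with mock.

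**Figure D2:**
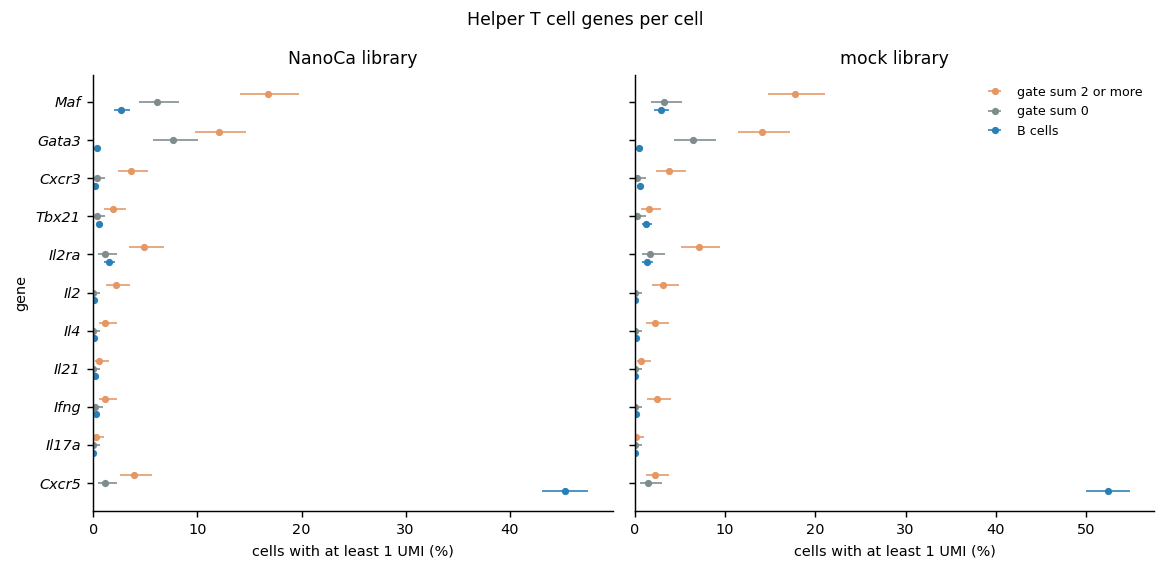
Share of cells with at least 1 UMI of 11 helper T cell genes (horizontal axes, percent) in gate-positive CD4 T cells (gate sum of 2 or more), gate-negative CD4 T cells (gate sum of 0) and B cells of each lymph node library, with 95% Clopper-Pearson intervals. Maf and Gata3 reached 12.1% to 17.7% of gate-positive cells, Il17a stayed under 0.3%, and Cxcr5 was found in 45.3% and 52.4% of B cells.

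The nearest like cells, which the rule kept out, went further along the same genes. At a gate sum of at least 2, 47 NanoCa and 60 mock cells held a Pdcd1 UMI and no Foxp3 UMI, and 161 and 143 held a Foxp3 UMI. Gate sums were not matched between these sets and the gate-positive cells. Maf was at 105 and 192 CPM in the Pdcd1-positive and 127 and 137 in the Foxp3-positive cells, against 47.2 and 56.5 in the gate-positive cells. Ctla4 was at 492 and 612, 909 and 792, and 195 and 187 CPM in the same order. Lef1 ran the other way, at 314 and 215, 263 and 286, and 754 and 631 CPM. Tox2, a follicular helper factor, was at 28.8 and 79.9 CPM in Pdcd1-positive cells and at 5.14 and 10.1 CPM in gate-positive cells. Cells over 10000 UMIs carried 55.4% and 40.9% of the UMIs of the Pdcd1-positive sets and 55.2% and 46.0% of the Foxp3-positive sets.

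In the tumour libraries the same rule took 29 NanoCa and 40 mock cells, 35.4% and 34.2% of the CD4 T cells passing the other criteria. Lef1 was at 48.6 and 108 CPM in them, against 754 and 631 CPM in the gate-positive lymph node cells. Over 10000 UMIs were held by 5 and 2 of these tumour cells, which carried 64.8% and 35.0% of the UMIs of the tumour sets. Median depth was 2394 and 2593 UMIs in the tumour sets, against 4726 and 4590 in the lymph node cells.

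The share of gate-positive cells among CD4 T cells was much the same in both libraries, and their share of kept barcodes was slightly higher with NanoCa. Gate-positive cells made up 6.33% (5.88 to 6.80) of kept NanoCa barcodes and 5.66% (5.22 to 6.12) of kept mock barcodes. The log2 ratio was 0.16 with an interval of 0.00064 to 0.32. Among CD4 T cells passing the other criteria they were 39.9% (37.5 to 42.2) with NanoCa and 41.0% (38.5 to 43.6) with mock, a log2 ratio of -0.04 (-0.20 to 0.12). High-gate cells were 16.9% and 17.8% of the same cells. After thinning to 2000 UMIs, 248 and 211 cells passed the rule, of which 201 and 173 had also passed it at full depth. The shares of CD4 T cells passing the other criteria were then 23.1% and 24.5%. The interval of the ratio narrowly excluded no difference for kept barcodes at full depth. It included no difference for kept barcodes after thinning (0.12, -0.15 to 0.39) and for each of these shares of CD4 T cells.

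In the cells that the rule chose by them, the gate genes themselves were little different in level. The same threshold of at least 2 UMIs held in both libraries, so these levels are partly set by the rule. Whether the gate genes differ between the libraries apart from the rule was not tested. Icos was at 499 CPM with NanoCa and 437 with mock, Tnfrsf4 at 254 and 244, Cd40lg at 137 and 112, and Tnfsf8 at 147 and 124. Maf was at 47.2 and 56.5 CPM, a log2 ratio of -0.26 (-0.55 to 0.03). Neither the gate genes nor Maf passed the 1.5-fold call, and only Maf was not used by the rule.

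Over all genes, 268 of the 9060 compared were called higher with NanoCa (2.96%) and 802 lower (8.85%), 11.8% in all. In gate-negative cells 272 of 7640 were higher (3.56%) and 619 lower (8.1%), 11.7% in all. Without the deep barcodes the gate-positive counts were 175 higher (2.18%) and 453 lower (5.65%) of 8016, 7.83% in all. The 10 most raised and 10 most lowered of the called genes that reached 50 CPM in either library are named below.

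Txnip, which restrains glucose uptake and is high in resting T cells, ranked first by the bound of its interval nearest to no difference. It was at 284 CPM with NanoCa and 142 with mock, a log2 ratio of 1.01 (0.86 to 1.16), and was found in 63.1% and 47.3% of cells. Its ratio was 0.88 without the deep barcodes and 0.95 in gate-negative cells. Klf2, the factor that drives S1pr1, was also called higher, at 1847 and 1178 CPM (log2 ratio 0.65), but not without the deep barcodes (0.50). Tagap, a signalling gene of activated T cells, was at 159 and 85.8 CPM (0.89), found in 46.9% and 35.1% of cells. Cdk8, a kinase of the Mediator complex, was at 3457 and 1922 CPM (0.85). The uncharacterised genes Gm11808 and Gm16286 had ratios of 0.93 and 0.85.

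The other 3 genes of the top group besides the interferon-induced Irf7 and Ifi27l2a, which are described below with their list, need their cells beside them, although the sums called them higher. Fscn1, an actin-bundling protein typical of mature dendritic cells, had 63.7% of its NanoCa UMIs in 1 barcode, was found in fewer cells with NanoCa (3.59%) than with mock (7.57%), and had a log2 ratio of -0.40 without the deep barcodes. Epsti1, an interferon-induced gene, had 36.0% of its NanoCa UMIs in 1 barcode and a ratio of 0.96 that was 0.22 without the deep barcodes. Ccl5, a chemokine of memory and cytotoxic T cells, was at 128 and 73.1 CPM (0.81) but was found in 13.1% and 12.6% of cells, and B cells held a UMI of it in 12.3% and 12.2% of cells. Its ratio was 0.87 without the deep barcodes and 1.04 in gate-negative cells, both called, and -1.02 after thinning to 2000 UMIs.

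All 10 genes with the lowest ratios are best known from other cell types or from killer cells, and in most of them 1 mock barcode supplied much of the sum. Cxcl14, Serping1, Rarres2, Bgn, Dcn and Col1a1, genes of fibroblasts and other stromal cells, had between 25.9% and 83.1% of their mock UMIs in 1 barcode. Gzmc and Ccl4, a granzyme and a chemokine of killer cells, had 85.4% and 92.1% of theirs in 1 barcode. With the deep barcodes left out, none of these 8 passed the call rule, which asks for at least 50 UMIs. For 6 of the 8 the ratio was still below 0 with an interval that excludes 0, on few UMIs, between -5.58 (-10.92 to -3.02) for Gzmc and -2.30 (-4.76 to -0.41) for Cxcl14. For Rarres2 (-0.62) and Ccl4 (-0.30) the interval included 0. Ccl8 and Ccl2, chemokines of macrophages and stromal cells, were still called lower then, at 2.85 and 40.8 CPM and at 8.86 and 37.3 CPM. Ccl8 was found in 1.15% of NanoCa and 14.1% of mock gate-positive cells, and its ratio in gate-negative cells was -4.44. Summed levels of the macrophage list moved the same way, at 718 CPM with NanoCa and 987 with mock (317 and 543 without the deep barcodes). So did those of the carcinoma list, at 87.1 and 217 (43.0 and 99.2), and all 15 macrophage genes had at least 1 UMI in each library. The stromal list summed to 185 and 432 CPM (160 and 178), and the B cell list to 427 and 446 (301 and 360). The CD8 and NK list summed to 337 and 338 (222 and 145), and the dendritic list to 304 and 274 (181 and 157). Of the 12 dendritic genes, 10 (NanoCa) and 9 (mock) had at least 1 UMI. Bst2 was at 211 and 234 CPM, Fscn1 at 68.8 and 30.7, and the defining Clec9a and Cd209a at 0 in both libraries. The part of the RNA of these lists in the lower calls was not tested.

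**Figure D3:**
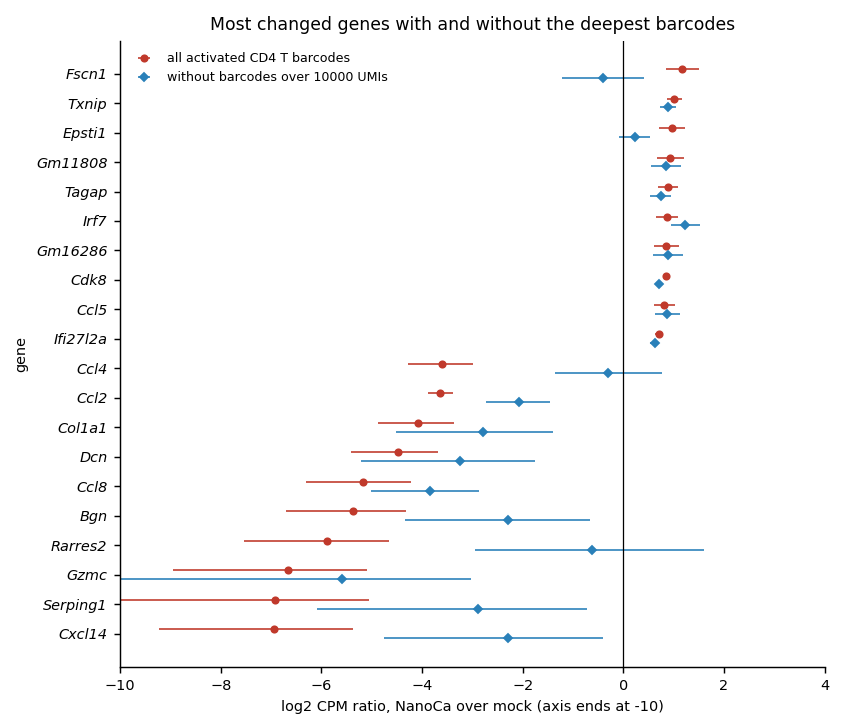
Log2 CPM ratio of NanoCa over mock (horizontal axis) for the 10 highest and 10 lowest genes in gate-positive cells, with 95% intervals, for all barcodes (red circles) and without barcodes over 10000 UMIs (blue diamonds). Txnip, Irf7 and Cdk8 kept ratios above 0.7, Fscn1 moved to -0.40, and most of the low ratios moved towards 0.

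Interferon-stimulated genes, the longest of the 28 lists, were called higher in a larger share than all genes in gate-positive cells. The share called lower was near that of all genes. Of the 47 compared, 9 were called higher and 3 lower, beside 2.96% and 8.85% of all genes. Their median log2 ratio was 0.24, against -0.01 over all genes. Without the deep barcodes 11 of 41 were higher and 3 lower (median 0.40), beside 2.18% and 5.65% of all genes. The 9 called higher with the deep barcodes included were Irf7, Irf9, Isg20, Ifit3, Ifi27l2a, Ddx58, Slfn1, Slfn5 and Slfn8. Irf7, the factor that amplifies type I interferon production, was at 128 CPM with NanoCa and 70.1 with mock (0.87, 0.65 to 1.09) and was found in 38.5% and 21.0% of cells. Ifi27l2a, a mitochondrial protein gene of the interferon response, was at 996 and 612 CPM (0.70) and was found in 84.5% and 75.9%. In high-gate cells the ratios of Irf7 and Ifi27l2a were 0.24 and 0.49, neither called, and at a gate sum of 2 or 3 they were 1.60 and 1.09, both called. Slfn5, of the Schlafen family linked to T cell quiescence, was at 30.3 and 12.0 CPM (1.34). Irf9, the DNA-binding part of the interferon-activated complex ISGF3, was at 65.6 and 42.4 CPM (0.63). Ddx58, the RNA sensor RIG-I, was at 48.0 and 31.5 CPM (0.61), and Ifit3, which has the near copy Ifit3b, was at 11.7 and 6.79 CPM.

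The 3 called lower with the deep barcodes included were Ly6a, Rsad2 and Ifi204. Ly6a, the surface protein Sca-1 that interferon raises in T cells, was at 66.8 CPM with NanoCa and 212 with mock, a log2 ratio of -1.67 (-1.87 to -1.46). Its ratio was -2.30 without the deep barcodes and -2.68 in gate-negative cells, and within the gate it was -1.35 in high-gate cells and -2.77 at a sum of 2 or 3. Rsad2, the antiviral enzyme viperin, was at 6.85 and 14.4 CPM.

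The number of interferon-stimulated genes called higher was not alike over the gate sums, and the difference was not tested. In gate-negative cells 18 of 39 were higher and 1 lower (median 0.56, beside 3.56% and 8.1% of all genes). Without the deep barcodes 14 of 37 of them were higher and 1 lower (0.53, beside 2.84% and 5.71%). In cells with a gate sum of 2 or 3, 14 of 38 were higher and 1 lower (0.44, beside 4.77% and 7.48% of all genes). There, 11 of 35 were higher and 1 lower without the deep barcodes (0.39, beside 2.94% and 5.34%). In high-gate cells 4 of 40 were higher and 5 lower (0.04, beside 3.62% and 8.23%), and without the deep barcodes 5 of 34 were higher and 1 lower (0.34, beside 3% and 5.75%). Usp18, which switches interferon receptor signalling off, had log2 ratios of 2.52 (1.56 to 3.65) in gate-negative and -0.37 (-0.86 to 0.12) in gate-positive cells. Rtp4, a chaperone induced by interferon, had 2.36 (1.74 to 3.03) and 0.40 (0.03 to 0.78). Isg15, a ubiquitin-like protein, had 1.36 (1.05 to 1.69) and 0.14 (-0.05 to 0.33). For each of these 3 genes the intervals of the 2 sets do not overlap, and the difference between the sets was not tested. Without the deep barcodes the gate-positive ratios were 0.59, 0.78 and 0.38.

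Isg15 gives the levels by gate sum for 1 gene of the list. With NanoCa, Isg15 was at 127 CPM at a gate sum of 0, at 162 at 1, at 106 at 2, at 89.7 at 3 and at 155 in high-gate cells. With mock it was at 49.2, 81.3, 51.6, 76.0 and 168 CPM. The intervals of the libraries did not overlap at 0, 1 and 2 and overlapped at 3 and in high-gate cells. Without the deep barcodes the values were 72.7 and 38.2 CPM at 1 and 147 and 133 CPM in high-gate cells. Within the mock library 11 of 43 interferon-stimulated genes were called higher in gate-positive than in gate-negative cells and 0 lower, beside 7.3% of all genes. Within the NanoCa library 1 of 45 was higher and 2 lower, beside 6.03%. Without the deep barcodes the counts were 8 of 35 higher with mock and 0 of 40 with NanoCa.

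**Figure D4:**
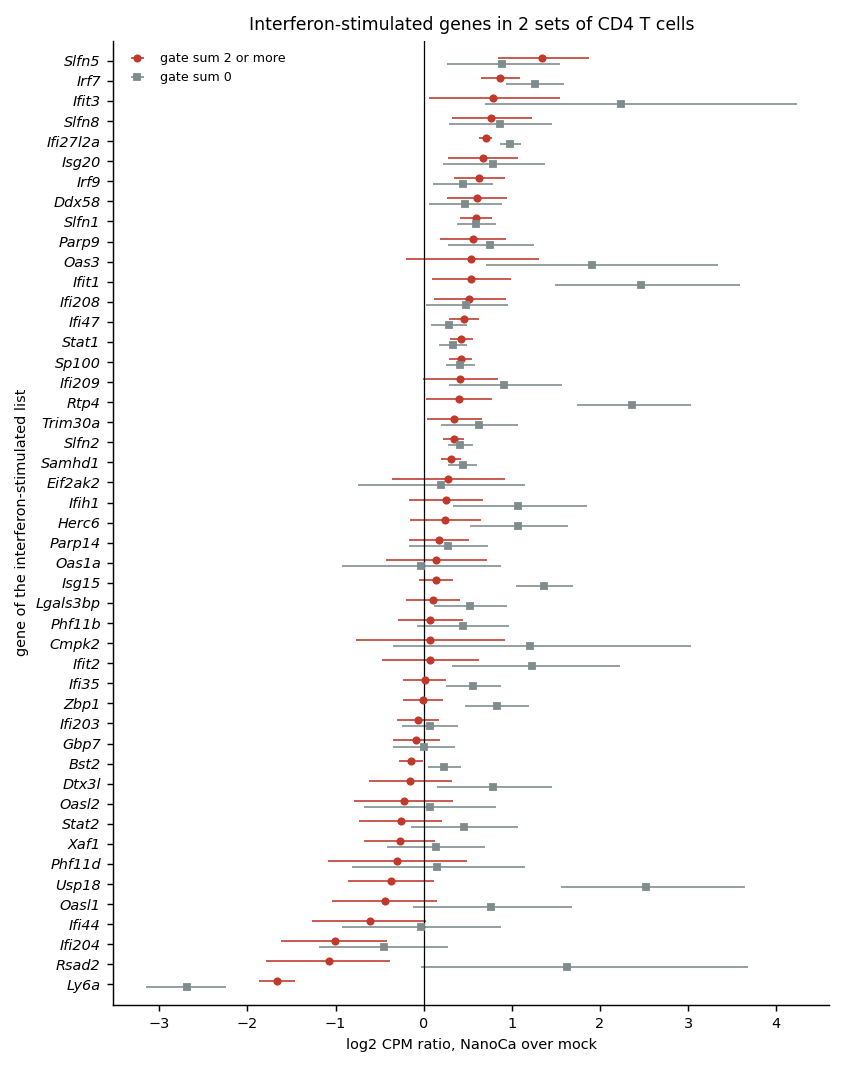
Log2 CPM ratio of NanoCa over mock (horizontal axis) with 95% intervals for the 47 interferon-stimulated genes compared, in gate-positive (red circles) and gate-negative (grey squares) CD4 T cells. Usp18, Rtp4 and Isg15 had ratios above 1.3 in gate-negative cells and below 0.5 in gate-positive cells, and Ly6a was below -1.6 in both.

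Promoter sequences of RefSeq (GRCm38.p6) were searched for the interferon-stimulated response element, the sequence bound by ISGF3 and IRF proteins, with the letters GAAA, 2 bases of any kind and again GAAA, on both strands, in 250 bases before to 50 bases after each gene start. The letters were found in 943 of 27025 promoters (3.49%), in 23 of the 44 list members with a promoter in the table (52.3%), and in 4 of the 8 called higher that had one. Those 4 were Ifit3, Ddx58, Slfn5 and Slfn8. The 250 bases before the start are shown for Ifit3 and Slfn8, which hold the element, and for Irf7, a called gene that does not hold these letters in the window. Capitals mark matches, here all on the opposite strand, the first base of which lies 156 (the first of 2 in Ifit3) and 48 (Slfn8) bases before the start.
Ifit3, chr19:34583279-34583528, plus strand: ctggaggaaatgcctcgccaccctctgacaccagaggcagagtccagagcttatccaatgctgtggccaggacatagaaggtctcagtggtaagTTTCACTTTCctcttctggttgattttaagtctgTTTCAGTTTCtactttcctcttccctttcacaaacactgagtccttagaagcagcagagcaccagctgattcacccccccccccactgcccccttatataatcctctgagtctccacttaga
Slfn8, chr11:83020811-83021060, minus strand: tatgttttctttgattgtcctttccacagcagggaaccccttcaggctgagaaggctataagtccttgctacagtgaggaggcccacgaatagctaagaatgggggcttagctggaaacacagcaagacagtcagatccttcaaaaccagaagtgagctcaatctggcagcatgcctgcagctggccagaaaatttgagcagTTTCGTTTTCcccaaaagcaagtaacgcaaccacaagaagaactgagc
Irf7, chr7:141266425-141266674, minus strand: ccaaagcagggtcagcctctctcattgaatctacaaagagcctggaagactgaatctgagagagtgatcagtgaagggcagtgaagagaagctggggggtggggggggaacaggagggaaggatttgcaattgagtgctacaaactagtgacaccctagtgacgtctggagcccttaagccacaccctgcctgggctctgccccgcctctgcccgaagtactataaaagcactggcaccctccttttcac

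A match is a description of letters and not a measured binding site.

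The counts of the other gene groups stand beside 2.96% of all genes called higher and 8.85% called lower (2.18% and 5.65% without the deep barcodes). Activation and costimulation genes had 2 of 25 called higher, Cd69 (227 and 150 CPM) and Ptger4, and 0 lower (median 0.06). Neither of these was called without the deep barcodes, where 3 others of the 25 were, Il2rb, Cd83 and Myc. Effector and tissue memory genes had 2 of 22 higher and 5 lower, the latter S100a6, Lgals3, Anxa2, Ly6a and Zeb2, and without the deep barcodes 0 of 21 higher and 8 lower. S100a6, a calcium-binding protein of motile cells, was at 1029 CPM with NanoCa and 1730 with mock, and its ratio was -0.75 in gate-positive and -0.85 in gate-negative cells. Lgals3 (galectin-3) and Anxa2 (annexin A2) had ratios of -0.95 and -0.70, -0.66 and -0.98 without the deep barcodes. These 3 genes are also abundant in macrophages and tumour cells, whose summed levels are given above, and the part of those cells was not tested.

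The growth genes Odc1 and Srm ran lower with NanoCa. Odc1, the first enzyme of polyamine synthesis, was at 59.5 and 193 CPM (-1.70), and Srm, spermidine synthase of the same pathway, was at 46.0 and 144 CPM (-1.65). Both calls were also made without the deep barcodes (-1.31 and -1.60), at gate sums of 4 or more (-1.64 and -1.17) and in gate-negative cells (-1.66 and -2.12). Over the whole list of glycolysis and growth genes, 1 of 25 was higher and 4 lower (median -0.19), beside 2.96% and 8.85% of all genes. Without the deep barcodes 0 of 23 were higher and 2 lower, beside 2.18% and 5.65% of all genes.

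Calcium and NFAT target genes, of interest because the particle carries calcium, had 2 of 21 higher and 1 lower (median 0.21), and without the deep barcodes 1 of 20 higher and 1 lower. Egr2, a transcription factor that the T cell receptor induces through NFAT, was at 22.8 CPM with NanoCa and 13.3 with mock (0.77), and 1.27 was its ratio without the deep barcodes. Rgs2, a brake on G protein signalling, had a ratio of 0.67, and Rgs16, of the same family, one of -0.77 (0.43 and -0.52 without the deep barcodes, neither called). Immediate-early and dissociation genes had 0 of 19 higher and 4 lower, among them Ier3, an early stress gene, at 28.4 and 115 CPM, with a ratio of -1.27 without the deep barcodes, where 5 of 19 were lower.

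Helper cytokine genes had 0 of 11 higher and 3 lower, Ifng, Csf1 and Csf2. Ifng rested on 13 NanoCa and 67 mock UMIs, in 8 and 14 cells. Th1 genes had 2 of 14 higher and 3 lower, Th2 genes 0 of 7 and 1, and Th17 genes 0 of 9 in either direction. Follicular helper genes had 0 of 15 higher and 1 lower, Tox2. Cell cycle genes had 1 of 30 higher and 5 lower (median -0.23). Chemokine receptor and egress genes had 2 of 17 higher, Ccr2 and Itga4, and GIMAP and quiescence genes 2 of 20, Klf2 and Txnip, with 0 lower in both lists. Leaving out the deep barcodes, Th1 genes had 3 of 11 higher and 1 lower, Th17 genes 0 of 8 and 2, helper cytokine genes 0 of 7 and 2, and cell cycle genes 0 of 25 and 6. In the same set no chemokine receptor or egress gene of 16 was called, and 1 of 20 GIMAP and quiescence genes was higher. Among interferon-gamma-induced genes 0 of 24 were higher and 1 lower, and no gene was called of 23 for MHC class I presentation, 10 inhibitory receptors and 9 regulatory T cell genes.

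T cell receptor beta V genes, which the rule did not use, showed a broad repertoire. A single leading Trbv gene could be given to 654 NanoCa and 526 mock gate-positive cells, and 21 and 22 Trbv genes led at least 1 cell. Trbv13-2 led 97 (14.8%) NanoCa and 50 (9.51%) mock gate-positive cells, a log2 ratio of 0.64 (0.14 to 1.16). In high-gate cells it led 16.8% and 8.66%, and in gate-negative cells 12.0% and 12.3%, a ratio of -0.03 (-0.58 to 0.52). It was the only one of 10 Trbv genes compared in gate-positive cells whose interval excluded 1. In high-gate cells 5 were compared and 2 excluded 1, Trbv13-2 and Trbv19 (-0.82, -1.63 to -0.03), while 0 of 10 did in gate-negative cells. Trbv13-1, Trbv13-2 and Trbv13-3 are close copies, so reads may be split among them, and the intervals were not adjusted for their number.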

How the data were processed

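The 4 lymph node and tumour libraries, 1 per group, were measured by droplet 3' single-cell RNA sequencing. Whole-number UMI counts per gene and barcode were deposited as filtered matrices made with Cell Ranger 7.1.0, per the file headers; the labels and headers used here name no genome build. The cells, gene lists and comparisons were chosen with earlier results of these data known, and no test was possible with 1 library per group. Counts were summed per library and set of cells and scaled to 1000000 per set (CPM). Ratios carry conditional binomial 95% intervals, levels exact Poisson and shares Clopper-Pearson intervals, all for counting error only. A gene was compared with at least 50 UMIs over both sets and called at 1.5-fold or more with an interval excluding 1, and a set without a UMI was set at 3 counts for the fold. Named genes were the 10 highest and 10 lowest called genes with at least 50 CPM, ranked by the interval bound nearest to 1, or, against gate-negative cells, those called alike in both libraries, plus up to 4 called members per described list in each direction and members that define it. Other genes named for their levels by gate sum, among them Rgs1 and S1pr1, were chosen after their values were seen. Shares were also computed after thinning cells to 2000 UMIs. The 970 of 11013 and 843 of 10268 lymph node barcodes with the highest Scrublet scores (scanpy 1.11.5) were marked as possible doublets. Their number was set beforehand at 0.8% per 1000 barcodes. The marked barcodes were kept, and left out in an alternative. Among gate-positive cells, 33 (NanoCa) and 25 (mock) shared a barcode sequence with another library. The depth per library was 74909974 and 106579362 UMIs in the lymph nodes. The call rule was tested on simulated data. Python 3.11.15, numpy 2.4.6, scipy 1.17.1 and pandas 2.3.3 were used. Promoter sequences came from RefSeq; 44 of the 57 interferon-stimulated list members matched by symbol.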

Additional observations from a re-analysis of the deposited data

Results flagged for a closer look

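For 13 genes the NanoCa-to-mock log2 ratio had opposite signs in high-gate cells and in gate-positive cells with a gate sum of 2 or 3, with both intervals clear of 0. The difference between the 2 sets was not tested for any of them. Most rest on a few barcodes. The killer genes were lower with NanoCa in high-gate cells and higher at 2 or 3. Gzma had ratios of -7.66 (-12.98 to -5.17, on 1 NanoCa UMI) and 5.47, Gzmb -8.46 (-13.77 to -5.97, on 1 NanoCa UMI) and 4.16, Prf1 -2.12 and 1.79, and Nkg7 -1.97 and 2.48. In the high-gate mock cells 1 barcode held 79.1% of the Gzma UMIs, 72.2% of those of Gzmb and 87.5% of those of Prf1.

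Myeloid genes had the same signs. Lyz2 had ratios of -2.73 and 1.24, Fcer1g -2.44 and 1.24, Tyrobp -1.53 and 1.74, and Irf8 -1.14 and 2.31. In NanoCa cells with a sum of 2 or 3, 1 barcode held 86.1% of the Lyz2 UMIs. The collagen gene Col3a1 had ratios of -4.52 and 1.72, with 58.2% of its high-gate mock UMIs in 1 barcode. Fscn1 (2.38 and -0.71) and Cst3 (0.70 and -0.60) ran the other way, and 1 barcode held 77.5% and 64.5% of their high-gate NanoCa UMIs.

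The interferon-induced Ifit2 had ratios of -0.78 and 1.10, with 57.9% of its high-gate mock UMIs in 1 barcode. Mcm5, a replication licensing factor, had -0.63 and 0.84. It was the gene least tied to single barcodes, the largest of which held between 9.84% and 17.0% of its UMIs.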

How the results depend on the processing

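Every ratio rests on 1 library per group, on the tags that call the mock libraries untreated, and on rare transcripts at medians of 4726 and 4590 UMIs per cell, so a missing gate UMI does not show a missing gene. No paired analysis was possible because each group held 1 library. Over 9 alternatives the log2 ratio of the share of CD4 T cells stayed between -0.08 and -0.003, and that of kept barcodes between 0.02 and 0.20. The 268 genes higher and 802 lower became 98 and 143 after thinning to 2000 UMIs, 91 and 262 with at least 200 UMIs, and 175 and 453 without barcodes over 10000 UMIs, while with at least 10 UMIs 1253 were lower. After thinning, the median of the homing genes was 0.013 and that of the cell cycle genes 0.16, and the cell cycle median was -0.61 without cells holding a UMI of Ms4a1, Cd79b, Lyz2, C1qa, Klrb1c, Trdc or Rhox5. The interferon-stimulated median was 0.036 at a gate sum of at least 4. Ccl5 reversed to -1.02 after thinning and Fscn1 to -0.40 without barcodes over 10000 UMIs. The causes were not tested. All 18 alternative values of the 2 shares lay within the interval of the reported value, and 19 of 26 for the 2 counts of genes within 1.5 times of it. For the 26 list medians 319 of 338 lay within the range of the genes ranked around the reported median, and 31 of the 338, in 15 lists, had the other sign than the reported median. For the 20 named genes, 224 of 238 alternatives made the same call, 12 kept the direction without passing the call rule and 2 reversed. Leaving out barcodes over 10000 UMIs and a gate sum of at least 4 were chosen after seeing the data.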
